A study of Canis lupus familiaris with 4 samples.

Results

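The enzymes that oxidize, reduce and conjugate drugs, pollutants, steroids and retinoids were examined as 6 gene families in canine kidney cells: the cytochromes P450 (CYP), the aldehyde dehydrogenases (ALDH), the aldo-keto reductases (AKR), and the glutathione (GST), sulfate (SULT) and sugar (UGT) transferases. Members were all genes whose symbol starts with one of these family names followed by its number, read from probe sets with exactly 1 gene symbol. *CYP51A1*, *CYP4A37*, *ALDH1L2* and *UGT1A6* were left out by the rule. This gave 70 of the 15115 genes with such a probe set, and the probe set with the highest mean intensity over the 4 arrays stood for its gene.

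RNA came from MDCK strain II cells, a dog kidney epithelial line, in 4 conditions with 1 Affymetrix array each. Control cells and HIF2α-KD cells were kept for 24 h in normoxia and then for a further 24 h in normoxia or in hypoxia, which the study's methods give as 16% and 1% oxygen. The knockdown cells carry a retroviral shRNA against the mRNA of HIF2α and were selected with puromycin. The labels give the genotype of the other cells as wild type and do not name the knockdown line. The study's text gives cells with an empty shRNA cassette as its control and names the line HIF2α-KD#1 for the normoxic arrays, one of several lines made with different shRNAs, and it does not state for these lines whether they are clones or pools. The deposited values are linear intensities per probe set. With 1 array per condition a difference carries neither an error nor a p-value. It was taken on the scale of log2(intensity + 16), on which changes of dim genes come out too small. A difference of at least 1 on that scale, 2-fold, was counted.

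P450 enzymes insert an oxygen atom into lipophilic compounds with electrons from NADPH, and GST, SULT and UGT enzymes then attach glutathione, sulfate or a sugar so that the product dissolves and leaves the cell. The retinoid enzymes work in sequence: retinol is oxidized to retinal, ALDH1A enzymes turn retinal into retinoic acid, and CYP26 enzymes break retinoic acid down, while some aldo-keto reductases carry retinal back to retinol. In the kidney these families are known mostly from the proximal tubule, and MDCK cells are usually taken as a model of more distal segments. Several of the genes are targets of the aryl hydrocarbon receptor, which shares its partner ARNT with the HIFα proteins, or of the oxidant sensor NRF2.

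The targeted gene bears on the labels. *EPAS1*, which encodes HIF2α, was at 44.6 in control cells and 47.9 in HIF2α-KD-labelled cells in normoxia, and at 116 and 32.6 in hypoxia. These values come from the brightest *EPAS1* probe set, and those in normoxia were dim beside the background of 20.6 to 27.2 set below. The study reports lower HIF2α mRNA by RT-qPCR in each of its knockdown lines. The arrays therefore do not show that the knockdown failed in normoxia. The knockdown label went with a lower level in hypoxia alone, so the normoxic array is called KD-labelled throughout, and every normoxic direction below is drawn from its label. Other genes did differ on that array: *VEGFA*, an angiogenic factor, was at 1447 in control and 535 in KD-labelled cells in normoxia, and the repressor gene *BHLHE40* at 2248 and 1067. These HIF targets were chosen after their values were seen, as was *PFKFB3*, which was higher there by 0.70. *VEGFA* and *BHLHE40* were the 2 of 21 hypoxia response genes kept that were at least 2-fold lower there, and 0 were 2-fold higher. Over all genes 1.16% were 2-fold different there in either direction, and the median of the 21 was -0.17. In each list of 4 intensities the order is control and KD-labelled cells in normoxia, then control and knockdown cells in hypoxia. The epithelial markers *EPCAM*, *KRT8*, *KRT18* and *CDH16* were above background on all 4 arrays, and *PAX8* and *PAX2* were at background on all of them. *CDH1*, which encodes E-cadherin, was below background in normoxia, at 15.4 and 18.9, and above it in hypoxia, at 119 and 81.4. Only its hypoxic values brought *CDH1* past the filter of 28.64, and both normoxic values lay among the reporters. The limma fit therefore cannot decide whether hypoxia raised *CDH1*, and no p-value is given for it. The study measured *CDH1* mRNA by RT-qPCR and E-cadherin by western blot in normoxic MDCK cells. A value below background here therefore does not show that the mRNA is absent. Above background on all 4 were 4 of 10 markers of the proximal tubule, 6 of 12 of the collecting duct and distal tubule, 0 of 6 of hepatocytes, 1 of 5 of endothelium and 4 of 5 of leukocytes. The 4 leukocyte markers were dim, between 26.3 and 45.3, so a value just above background does not by itself show expression. The albumin gene *ALB*, a defining hepatocyte marker, lay between 9.23 and 21.96. The summed level of the fibroblast markers was 103 and 106 in normoxia and 215 and 149 in hypoxia, which came from *PDGFRA*, and its part in any result was not tested. Of 24 hypoxia response genes with a probe set 21 were kept, without the dim *CA9*, *BNIP3* and *PFKFB4*. *NDRG1* and *EGLN3* were kept through their hypoxic values alone, and 19 genes were above background on all 4 arrays. Of the 21, 15 were at least 2-fold higher in hypoxia in control cells, beside 3.04% of all genes. Between the KD-labelled arrays 14 were, beside 1.38%, so both hypoxic arrays carried the response. In RNA from a whole culture, fewer cells that express a gene and less of its RNA per cell cannot be told apart.

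Background was set at the 95th percentile of the reporters, control probe sets that represent no dog gene, which was 20.6 to 27.2 on the 4 arrays. Most of the 70 members were dim. Above background on all 4 arrays were 30 of them (42.9%, against 57.3% of all genes), 11 were above it on some arrays, and 29 on none (41.4% against 30.7%). The families differed in this. Of the 35 P450 genes 8 were above background on all arrays and 18 on none, whereas 12 of 16 ALDH, 4 of 5 GST and 3 of 4 AKR genes were above it on all. Among the transferases, 3 of 8 SULT and 0 of 2 UGT genes were.

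**Figure D1:**
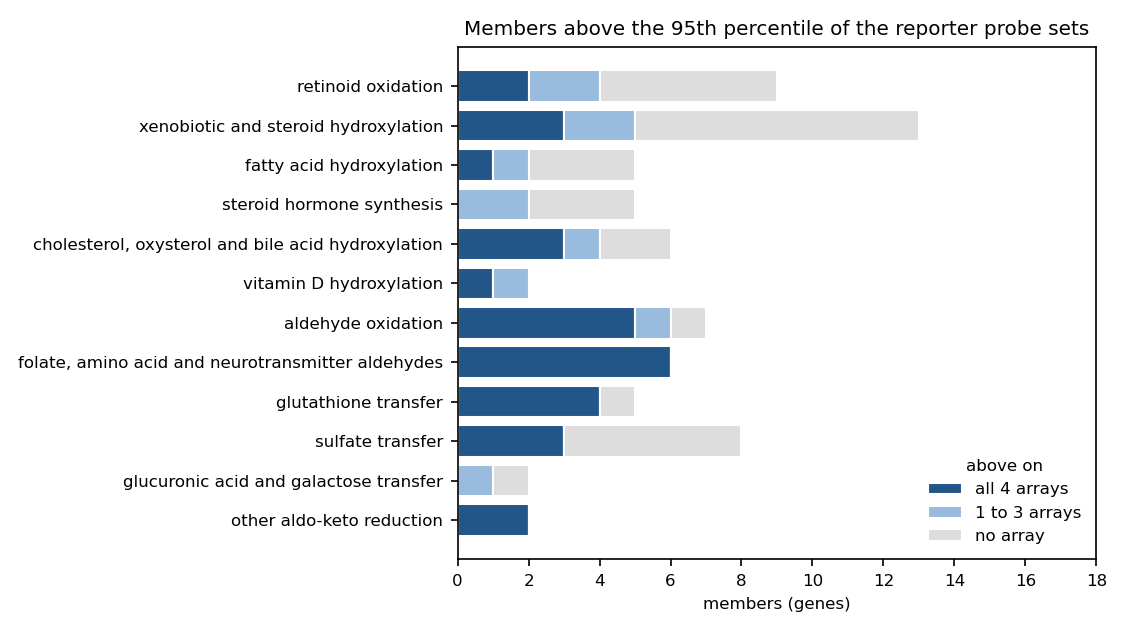
Number of members of each role that lay above background, the 95th percentile of the reporters, on all 4 arrays, on 1 to 3 arrays or on no array. All 6 enzymes of folate, amino acid and neurotransmitter aldehydes were above it on all 4, against 3 of 13 P450 genes of xenobiotic and steroid hydroxylation.

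Several P450 genes of drug and bile acid metabolism were among the undetected ones, whereas *CYP2D15* and *CYP8B1*, described below, were above background on all 4 arrays. *CYP1A2*, a drug-metabolizing P450 induced through the aryl hydrocarbon receptor, lay between 9.44 and 22.8 on the 4 arrays. *CYP3A26*, of the CYP3A group that handles many drugs, lay between 1.00 and 4.42, *CYP2B6* between 10.5 and 14.3, and the ethanol-inducible *CYP2E1* between 12.3 and 23.4. *CYP7A1*, the rate-limiting enzyme of classical bile acid synthesis, lay between 2.85 and 10.2. *UGT2B31*, a glucuronosyltransferase, lay between 14.0 and 17.6. For such genes the arrays give no direction, which does not show that the mRNA is absent. Genes were kept for differences when at least 1 of their 4 intensities was 28.64 or more, the median of all deposited values. This left 36 of the 70 members and 9757 of all genes. A gene that is bright on a single array passes this filter, and 6 of the 36 were not above background on all arrays.

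**Figure D2:**
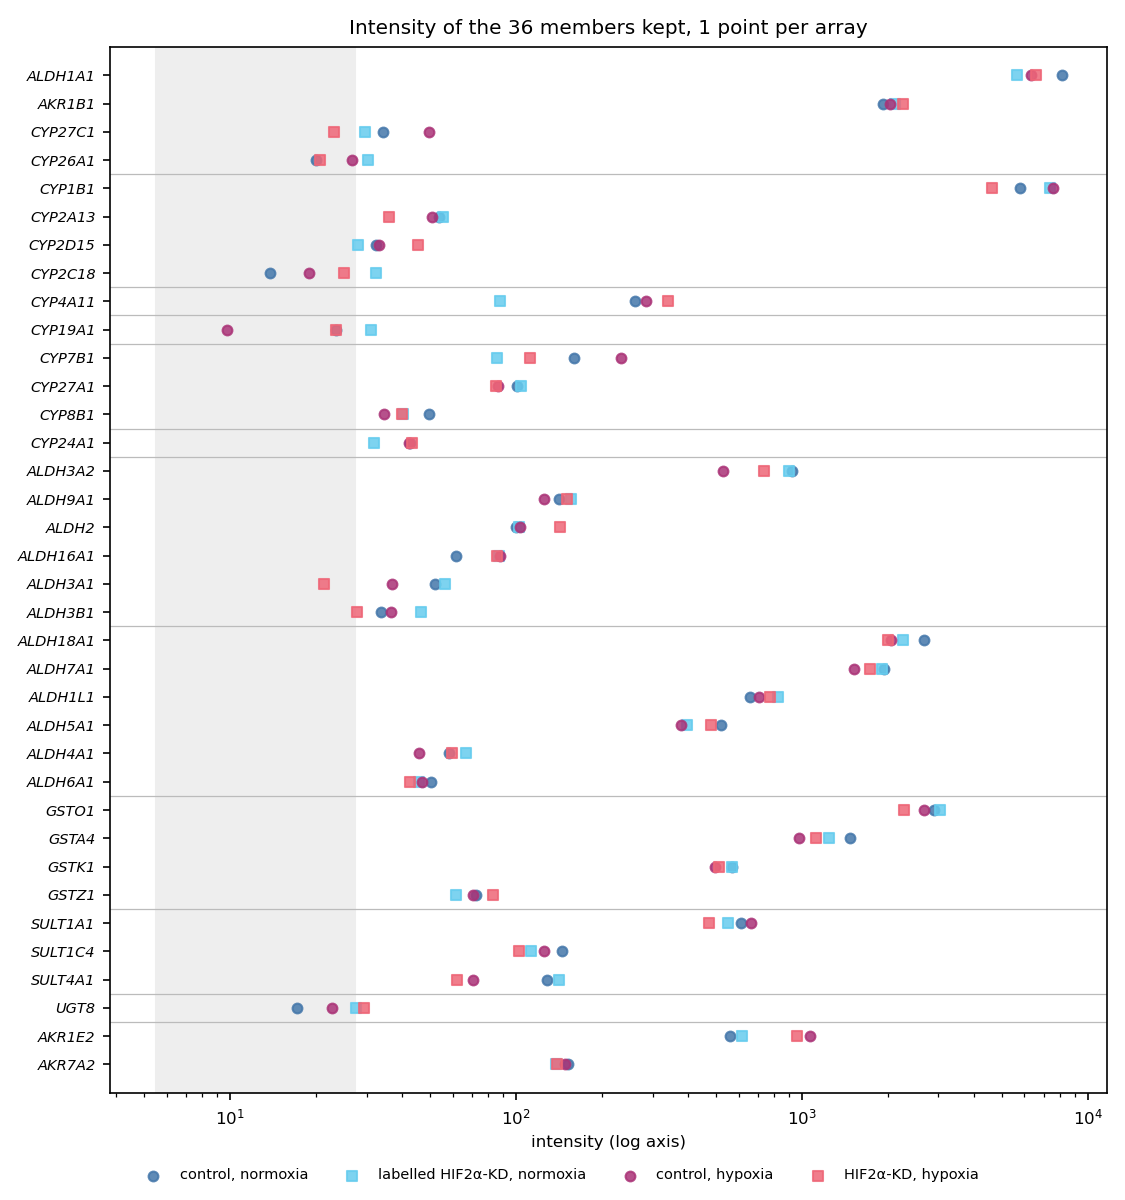
Intensity, on a log axis, of the 36 members kept, where each point is an array, without error bars for lack of replicates. Lines separate the roles. The grey band, 5.48 to 27.2, spans the reporters from their lowest median to their highest 95th percentile, and *ALDH3A1*, *CYP19A1*, *CYP26A1*, *CYP27C1*, *CYP2C18* and *UGT8* have points inside it. Probe sets differ in their response, so levels of different genes cannot be set against each other.

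At most 2 of the 36 members differed 2-fold in any comparison, so each share below rests on few genes. With the 4 symbols left out by the rule added back, the counts were 2, 4, 2 and 2 in the order below. In control cells 0 of 36 were at least 2-fold different in hypoxia, where 3.58% of all genes were, 3.04% higher and 0.533% lower. Between the KD-labelled arrays 2 of 36 were (5.56%), *CYP4A11* higher and *SULT4A1* lower in hypoxia. Of all genes 1.8% were, 1.38% higher and 0.42% lower. In normoxia *CYP4A11* was the only one of 36 (2.78%) that differed 2-fold between the KD-labelled array and the control array, against 1.16%. In hypoxia 0 of 36 did, against 0.974%. A difference of at least 1.5-fold was reached by 5, 5, 3 and 4 of the 36 in this order, 13.9%, 13.9%, 8.33% and 11.1%, beside 14.5%, 8.16%, 6% and 6.54% of all genes. The comparisons share arrays in pairs and are not independent of each other. The median difference of the 36 members was -0.05 and -0.13 for hypoxia in control and in knockdown-labelled cells, where all genes had medians of 0.03 and 0.02. For the knockdown it was 0.02 in normoxia and 0.03 in hypoxia, where all genes had -0.04 in both.

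**Figure D3:**
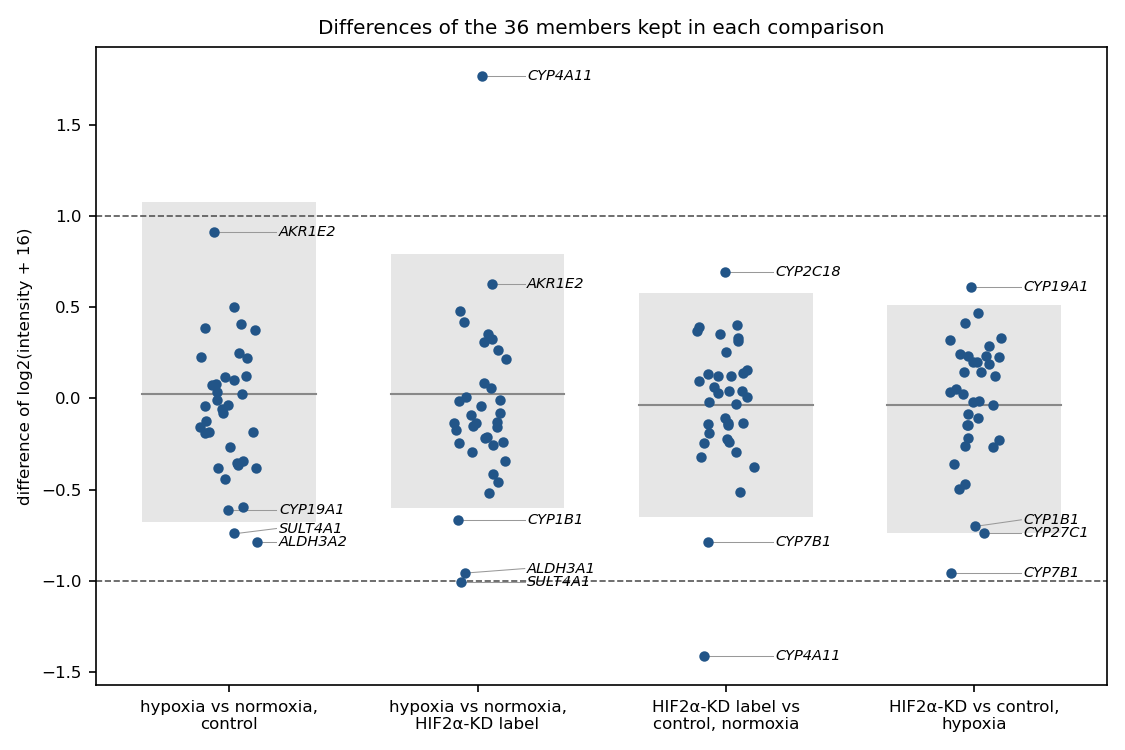
Difference of log2(intensity + 16) of each of the 36 members in the 4 comparisons, 1 point per gene. Grey bars hold the central 95% of all 9757 genes and grey lines their median, dashed lines mark 2-fold, and genes with a difference of at least 0.6 in size are named. *CYP4A11* lies farthest out, at 1.77 and -1.41.

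The only test these arrays allow is a fit over all 4, with an additive term for oxygen and another for the cell line, by limma with Benjamini-Hochberg adjustment over all genes kept. It has 1 residual degree of freedom, and it assumes that the knockdown acts alike at both oxygen levels. For oxygen it called 2.87% of all genes, 2.46% higher and 0.41% lower in hypoxia, and 2 of the 36 members, *AKR1E2* higher and *SULT4A1* lower in hypoxia. At an unadjusted p under 0.05 it gave 7 of 36 members for oxygen, beside 20.6% of all genes. For the knockdown limma called 0 members and 0% of all genes. Unadjusted, 1 of 36, *CYP7B1*, was under 0.05, beside 9.62% of all genes, and robust moderation called 21 genes with no member among them.

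Of the 9 genes grouped under retinoid oxidation, a role that also holds aldo-keto reductases and a desaturase, 2 were above background on all arrays. *ALDH1A1*, which oxidizes retinal to retinoic acid and many other aldehydes, was at 8096 in control and 5659.9 in KD-labelled cells in normoxia, and at 6330.5 and 6569 in hypoxia. The control array in normoxia was the high one, and the other 3 lay close together. The differences were -0.52 for the knockdown label in normoxia and -0.35 for hypoxia in control cells, and 0.05 for the knockdown in hypoxia. Its other kept probe set, at 1846, 1031, 1061 and 1161, had the same order, with -0.83, -0.79 and 0.13. *AKR1B1*, an aldose reductase that also reduces retinal, stayed between 1925 and 2249 on all arrays, and its differences were at most 0.15 in size.

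The other retinoid genes were dim. *CYP26A1*, which degrades retinoic acid, was at 19.9 and 30.4 in normoxia and at 26.7 and 20.6 in hypoxia on the control and knockdown-labelled arrays, above background on 2 of 4. *CYP26B1* and *CYP26C1* were at background, the latter listed at 1.00 on every array, as were *ALDH1A2*, *ALDH8A1* and *AKR1C3*. *CYP27C1*, a retinoid desaturase, was at 34.4 and 29.5 in normoxia and at 49.4 and 23.1 in hypoxia. It was highest on the control array in hypoxia and below background in knockdown cells there, a knockdown difference of -0.74, which ranged from -1.06 to -0.38 with the pseudocount and the other settings tried. Among related genes, 18 of 33 with a probe set were kept from a list of retinoid carriers, dehydrogenases and receptors, and 1 of these was at least 2-fold higher and 0 lower in any comparison. This was *FABP5*, a fatty acid carrier that also delivers retinoic acid, at 179 and 193 in normoxia and 263 and 435 in hypoxia. Its hypoxia difference was 1.11 between the KD-labelled arrays, where 1.38% of all genes were at least 2-fold higher. *RDH10*, which makes retinal from retinol, was at 306 and 319 in normoxia and 332 and 623 in hypoxia, with a high value in hypoxic knockdown cells alone.

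*CYP1B1* was the bright member among the P450 genes of xenobiotic and steroid hydroxylation. Its enzyme hydroxylates estrogens, retinoids and polycyclic hydrocarbons, and the gene is a known target of the aryl hydrocarbon receptor. It stood at 5767 in control and 7374 in KD-labelled cells in normoxia, and at 7537 and 4634 in hypoxia. The HIF2α-KD array in hypoxia was the lowest of the 4. *CYP1B1* thus differed by 0.39 in hypoxia in control cells and by -0.67 between the KD-labelled arrays, and the knockdown difference was 0.35 in normoxia and -0.70 in hypoxia. A second probe set, at 1169, 1785, 1778 and 1149, gave 0.60, -0.63, 0.60 and -0.62. The signs held under each of the settings tried, but the change between the pairs of arrays, -1.05, could not be tested with 1 array per condition.

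Among the receptor genes, *AHR* lay between 122 and 149, *ARNT* between 71.0 and 78.9, and the NRF2 gene *NFE2L2* between 2618 and 3183. The lipid-sensing receptor gene *PPARG* was at 1555 and 1485 in normoxia and at 2804 and 1998 in hypoxia, and its relative *PPARD* at 194 and 149 in normoxia and at 126 and 101 in hypoxia. The electron donor *POR*, which supplies all microsomal P450 enzymes, was at 109 and 75.1 in normoxia and 166 and 115 in hypoxia. Apart from *PPARG*, these genes stand outside the rule for genes named and were chosen after their values were seen. Of 15 genes of xenobiotic sensing kept, *TIPARP*, another target of the aryl hydrocarbon receptor, was the only one 2-fold different, at 412 and 613 in normoxia and 1065 and 451 in hypoxia. Its hypoxia difference in control cells was 1.34 and its knockdown difference in hypoxia -1.21, with the control array in hypoxia the high one. Over all genes 3.58% and 0.974% were 2-fold different in these comparisons. Of 17 electron donors and other phase I enzymes kept, 0 were 2-fold different in any comparison.

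Of the other 12 genes of this role, *CYP2A13* and *CYP2D15* were above background on all arrays, and both were dim. *CYP2D15*, the dog CYP2D drug oxidase, was at 32.3 and 27.98 in normoxia and at 33.1 and 45.3 in hypoxia. Its hypoxia difference of 0.48 between the KD-labelled arrays was -0.42 in its other probe set, so the 2 probe sets give no common direction. *CYP2C18*, at 13.8 and 32.3 in normoxia and 18.9 and 24.9 in hypoxia, was above background on both arrays labelled HIF2α-KD and below it on both control arrays. Its difference of 0.70 in normoxia rests on a control value inside the range of the reporters.

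*CYP4A11*, which hydroxylates fatty acids at the end of the chain, was the one fatty acid hydroxylase above background on all arrays. It stood at 261 in control and 88.1 in KD-labelled cells in normoxia, and at 286 and 339 in hypoxia. A single array was low, the normoxic one with the knockdown label, and the other 3 lay close together. The difference was therefore -1.41 under the knockdown label in normoxia and 1.77 for hypoxia between the KD-labelled arrays, both from the same array. The hypoxia difference in control cells was 0.12 and the knockdown difference in hypoxia 0.24. With the additive fit the oxygen difference was 0.95 with a standard error of 0.35 (limma, adjusted p = 0.191). The paralog *CYP4A37*, which is not among the members, was at 293 and 85.9 in normoxia and 820 and 310 in hypoxia. This, its brightest probe set, was low on the same array. In hypoxia it was again lower in knockdown than in control cells. Another kept probe set of *CYP4A37*, at 35.5, 37.6, 50.8 and 42.8, did not share this. Its knockdown difference was 0.06 in normoxia and -0.18 in hypoxia. The CYP4A genes are close copies, RefSeq lists *CYP4A38* and *CYP4A11* next to each other, and probes of one may bind RNA of another, so the values of *CYP4A11* are uncertain as those of a single gene. The second probe set of *CYP4A11* lay between 8.01 and 21.9, at background.

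*CYP7B1*, an oxysterol hydroxylase of the acidic bile acid route, was at 159.7 in control and 85.9 in KD-labelled cells in normoxia, and at 233 and 112 in hypoxia. Both arrays with the knockdown label lay below both control arrays. The knockdown difference was -0.79 in normoxia and -0.96 in hypoxia, and the hypoxia difference was 0.50 in control cells and 0.33 under the knockdown label. The fitted knockdown difference was -0.87 with a standard error of 0.14 (limma, adjusted p = 0.15). Over the alternatives the adjusted p was 0.0727 to 0.399, so *CYP7B1* did not pass the test, and it has 1 probe set kept and none to compare.

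In the same role, *CYP27A1*, the mitochondrial sterol hydroxylase, was at 100.4 and 104 in normoxia and at 86.3 and 85.2 in hypoxia, differences of -0.19 and -0.25. *CYP8B1*, the hydroxylase of cholic acid synthesis, lay between 34.4 and 49.6. Of the vitamin D hydroxylases, *CYP24A1*, which inactivates the hormone, was at 42.6 and 31.7 in normoxia and at 42.3 and 43.3 in hypoxia. Only the normoxic array with the knockdown label was lower. *CYP27B1*, which activates the vitamin, lay between 21.9 and 25.4, near background. From a list of 12 other vitamin D genes 3 were kept, among them *CUBN*, an uptake receptor of the vitamin's carrier, at 183 and 214 in normoxia and 432 and 307 in hypoxia, and *TRPV6*, a calcium channel, at 3.10 and 2.69 in normoxia and at 73.1 and 4.85 in hypoxia. *TRPV6* was above background on the control array in hypoxia alone. Of the steroid hormone synthesis genes *CYP19A1*, the aromatase, was kept, at 23.4 and 31.0 in normoxia and 9.76 and 23.4 in hypoxia. It was above background on 1 array, the normoxic one with the knockdown label. Its differences of -0.61 in hypoxia in control cells and 0.61 for the knockdown in hypoxia do not use that array. Both ends of each lie at background.

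The aldehyde dehydrogenases outside the retinoid group were mostly measured, 12 of 13 kept. *ALDH3A2*, which oxidizes fatty aldehydes, was at 923 in control and 904 in KD-labelled cells in normoxia, and at 527 and 735 in hypoxia. Both hypoxic arrays lay below both normoxic ones, and the control array in hypoxia was the lowest. The hypoxia difference was -0.79 in control cells and -0.29 under the knockdown label, and the knockdown difference in hypoxia was 0.47. All 3 other probe sets had the same signs, with -1.39 to -0.53 in control cells, -0.35 to -0.07 under the knockdown label and 0.08 to 0.61 for the knockdown in hypoxia. The -1.39 comes from a probe set that was below background on the hypoxic control array, at 16.7, so its size is uncertain. The additive fit gave -0.54 for oxygen with a standard error of 0.17 (limma, adjusted p = 0.139), so *ALDH3A2* did not pass the test.

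*ALDH3A1*, a detoxifying enzyme of the cornea and of some tumors, was at 52.0 and 56.6 in normoxia and at 36.7 and 21.4 in hypoxia. The last value lay below background, and its hypoxia difference of -0.96 between the KD-labelled arrays became -1.36 when 1 was added before the log2 and -0.50 when 64 was. *ALDH3B1*, which acts on membrane-derived aldehydes, lay between 27.7 and 46.5. The mitochondrial acetaldehyde dehydrogenase *ALDH2* was at 100.1 and 103 in normoxia and at 103 and 143 in hypoxia, so that the HIF2α-KD array in hypoxia stood above the others by 0.42. Its other probe set, at 43.8, 46.8, 35.97 and 31.5, went the other way there, by -0.13. *ALDH16A1* was at 61.8 on the control array in normoxia and between 86.1 and 87.5 on the other 3, but its second probe set, at 41.3, 35.4, 46.6 and 48.4, did not show this and gave -0.16 against 0.40 for the knockdown label in normoxia. *ALDH9A1*, of carnitine synthesis, lay between 125 and 155, and *ALDH1B1* was at background.

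All 6 enzymes of folate, amino acid and neurotransmitter aldehydes were above background on all arrays, and 5 of 6 were below 0 in hypoxia in each cell line, with medians of -0.30 and -0.11, where 46.8% of all genes were below 0 in each. When the probe sets of a gene were averaged, 5 of 6 in control cells and 3 of 6 under the knockdown label were below 0. *ALDH18A1*, the first enzyme of proline synthesis, was at 2671 and 2258 in normoxia and at 2049.7 and 2002 in hypoxia. *ALDH7A1*, of lysine breakdown, was at 1929 and 1904 in normoxia and at 1518 and 1732 in hypoxia. Both hypoxic arrays lay below both normoxic ones for each gene, and for *ALDH7A1* all 4 other probe sets had the same sign, with -0.39 to -0.36 in control cells and -0.24 to -0.07 under the knockdown label. The other probe set of *ALDH18A1* gave -0.11 and 0.21. Neither passed the test for oxygen (limma, adjusted p = 0.259 and 0.344). *ALDH5A1*, which ends the breakdown of the transmitter GABA, was at 521 and 398 in normoxia and at 379 and 481 in hypoxia, with opposite signs in the 2 cell lines, -0.44 and 0.27, and its other probe set had the same signs.

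*ALDH1L1*, a folate enzyme, shows how much the choice of probe set can matter. Its brightest probe set, at 657 and 822 in normoxia and 706 and 771 in hypoxia, differed by 0.10 and -0.09 in hypoxia. Its 4 other kept probe sets were higher in hypoxia in both cell lines, by 0.46 to 1.22 in control cells and by 0.56 to 0.68 between the KD-labelled arrays. Both ends of the range in control cells come from probe sets below background in normoxia, at 17.1 and 10.01 in control cells, so their sizes are uncertain. The brightest of these 4 was at 203 and 211 in normoxia and at 315 and 319 in hypoxia. *ALDH1L1* is outside the rule for genes named and is given here after its values were seen.

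Among the conjugating enzymes, the 4 glutathione transferases kept were all below 0 in hypoxia in control cells, from -0.59 to -0.03, and 3 of 4 were under the knockdown label, beside the same 46.8% of all genes. *GSTA4*, which detoxifies the lipid peroxidation product 4-hydroxynonenal, was at 1476 in control and 1245 in KD-labelled cells in normoxia, and at 973 and 1118 in hypoxia. The normoxic control array was the highest and the hypoxic control array the lowest, and the second probe set had the same order and signs, with -0.76 in control cells against -0.59. The oxygen difference of *GSTA4* was -0.37 with a standard error of 0.16 (limma, adjusted p = 0.24). *GSTO1*, a thioltransferase, was at 2906 and 3034 in normoxia and at 2664 and 2271 in hypoxia. *GSTK1*, of mitochondria and peroxisomes, lay between 498 and 571, and *GSTZ1*, of tyrosine breakdown, between 61.7 and 83.3. Another probe set of *GSTZ1* was higher by 0.51 in hypoxia in control cells, and when the probe sets of each gene were averaged, 3 of the 4 were below 0.

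*SULT4A1*, a sulfotransferase-like protein best known from brain, was at 129 in control and 142 in KD-labelled cells in normoxia, and at 70.6 and 62.3 in hypoxia. Both hypoxic arrays lay below both normoxic ones, with differences of -0.74 in control cells and -1.01 under the knockdown label, and the fitted oxygen difference was -0.87 with a standard error of 0.15 (limma, adjusted p = 0.0352). Over the alternatives the adjusted p was 0.0102 to 0.130. The other kept probe set of *SULT4A1*, at 72.8, 62.3, 75.4 and 59.3, differed by 0.04 and -0.06 and did not share the change. *SULT1A1*, a phenol sulfotransferase, was at 609.9 and 552 in normoxia and at 663 and 474 in hypoxia, and *SULT1C4* at 145 and 113 in normoxia and at 125 and 102 in hypoxia. Both lay lower on the KD-labelled arrays at each oxygen level, with differences of -0.47 to -0.14. Neither passed the test for the knockdown (limma, adjusted p = 0.61 and 0.573), and the second probe set of *SULT1C4* had the same signs. *UGT8*, which makes galactosylceramide, was at 17.1 and 27.5 in normoxia and 22.6 and 29.3 in hypoxia, above background on the KD-labelled arrays alone. Background was lower on those arrays, and *UGT8* was kept through the value of 29.3 alone.

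*AKR1E2*, an aldo-keto reductase of sugar derivatives, was at 558 in control and 616 in KD-labelled cells in normoxia, and at 1064 and 962 in hypoxia. Both hypoxic arrays lay above both normoxic ones, by 0.91 and 0.63, and *AKR1E2* rose in hypoxia by 0.77 in the fit, with a standard error of 0.15 (limma, adjusted p = 0.0496). The call lies at the edge of the threshold, with adjusted p-values of 0.0216 to 0.109 over the alternatives. A dim second probe set, at 29.2 and 23.0 in normoxia and 48.7 and 29.4 in hypoxia, had the same signs for hypoxia, 0.52 and 0.22. *AKR7A2*, an aflatoxin aldehyde reductase, lay between 138 and 152 on all arrays.

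**Figure D4:**
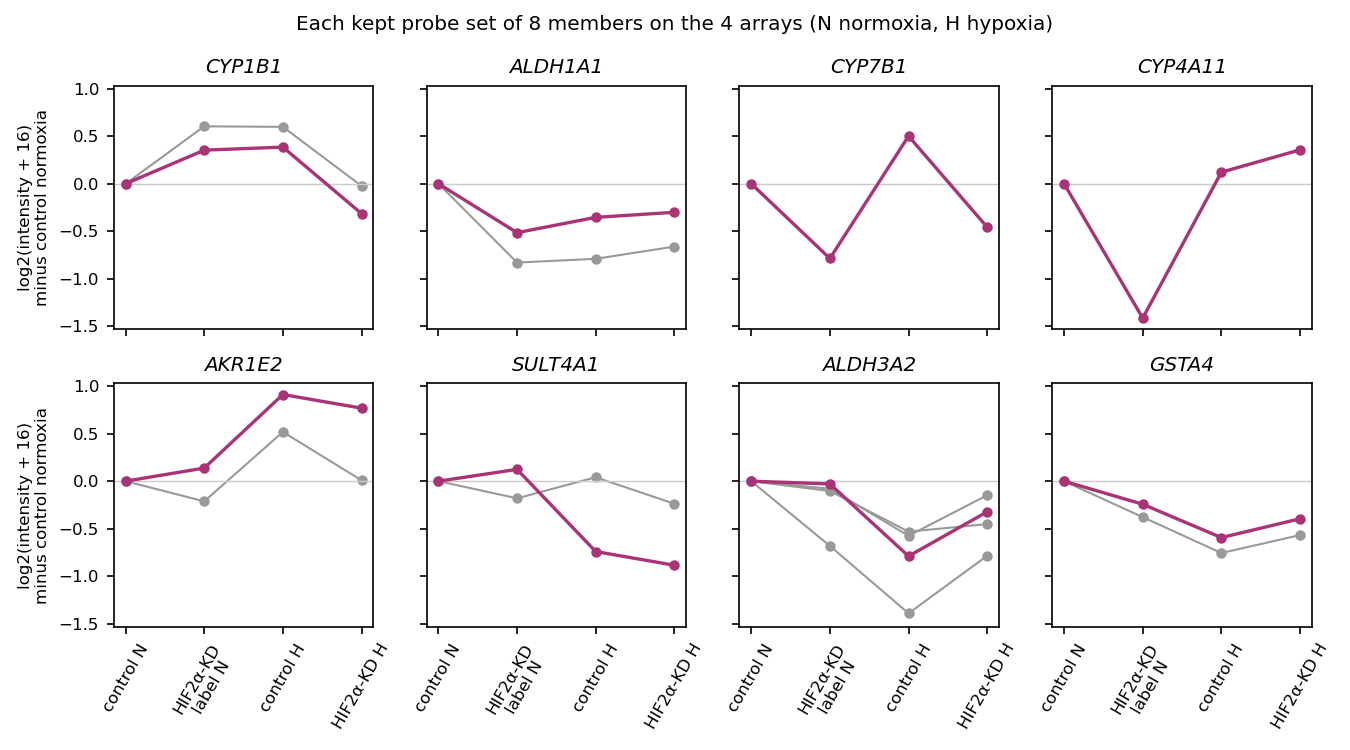
Each kept probe set of 8 members on the 4 arrays, as log2(intensity + 16) minus its value on the control array in normoxia; red is the brightest probe set and grey the others. The probe sets of *CYP1B1*, *ALDH1A1*, *ALDH3A2* and *GSTA4* go the same way, though a dim one of *ALDH3A2* lies lower than the others, those of *SULT4A1* part in hypoxia, and *CYP7B1* and *CYP4A11* have 1 probe set kept.

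Over the families, 18 of the 36 members had a further 28 kept probe sets. These shared the sign of the brightest one in 22 of 28 for hypoxia in control cells, 18 of 28 for hypoxia under the knockdown label, 19 of 28 for the knockdown in normoxia and 20 of 28 in hypoxia. Probe sets of a gene on the same arrays share its RNA and are not replicates of a condition.

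Genes of glutathione supply and NRF2 targets outside these families were among those the test called for oxygen. From a list of 24 NRF2 targets 18 were kept, of which 3 were at least 2-fold lower and 1 higher in hypoxia in control cells, and 3 were lower between the KD-labelled arrays. Over all genes 3.04% were 2-fold higher and 0.533% lower in control cells, and 0.42% were lower between the KD-labelled arrays. The test for oxygen called 4 of the 18, all lower (*NQO1*, *PIR*, *TXNRD1* and *GCLC*). Over all genes it called 2.87%, and 0.41% as lower. The list was chosen with earlier results of these data known. *NQO1*, a quinone reductase, was at 4488 in control and 7803 in KD-labelled cells in normoxia, and at 1134 and 1173 in hypoxia. It fell by 2.34 on the log2 scale in hypoxia (limma, adjusted p = 0.00288). *PIR*, an iron-binding nuclear protein, was at 3945 and 7441 in normoxia and 1899 and 2694 in hypoxia. Both were highest on the normoxic array with the knockdown label. *GCLC*, the catalytic subunit of the first step of glutathione synthesis, was at 950.0 and 1089 in normoxia and at 428 and 547 in hypoxia (limma, adjusted p = 0.0186), and it was the one gene of 15 conjugating and supply genes kept that was called. The other 14 of the 18 did not pass the test, and the list median was -0.12 in both cell lines. *SQSTM1*, an autophagy receptor of the same list, was higher instead, at 53.5 and 75.7 in normoxia and 214 and 122 in hypoxia.

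Of 9 xenobiotic transporters kept, 1 was 2-fold different, *ABCC1*, an exporter of glutathione conjugates, which was at 117 and 76.1 in normoxia and 158 and 66.8 in hypoxia. It was lower on both arrays with the knockdown label, with differences of -0.53 and -1.08. In hypoxia 0.974% of all genes were 2-fold different with the knockdown. *ABCB1*, the drug exporter P-glycoprotein, was at 424 and 537 in normoxia and at 764 and 686 in hypoxia.

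**Figure D5:**
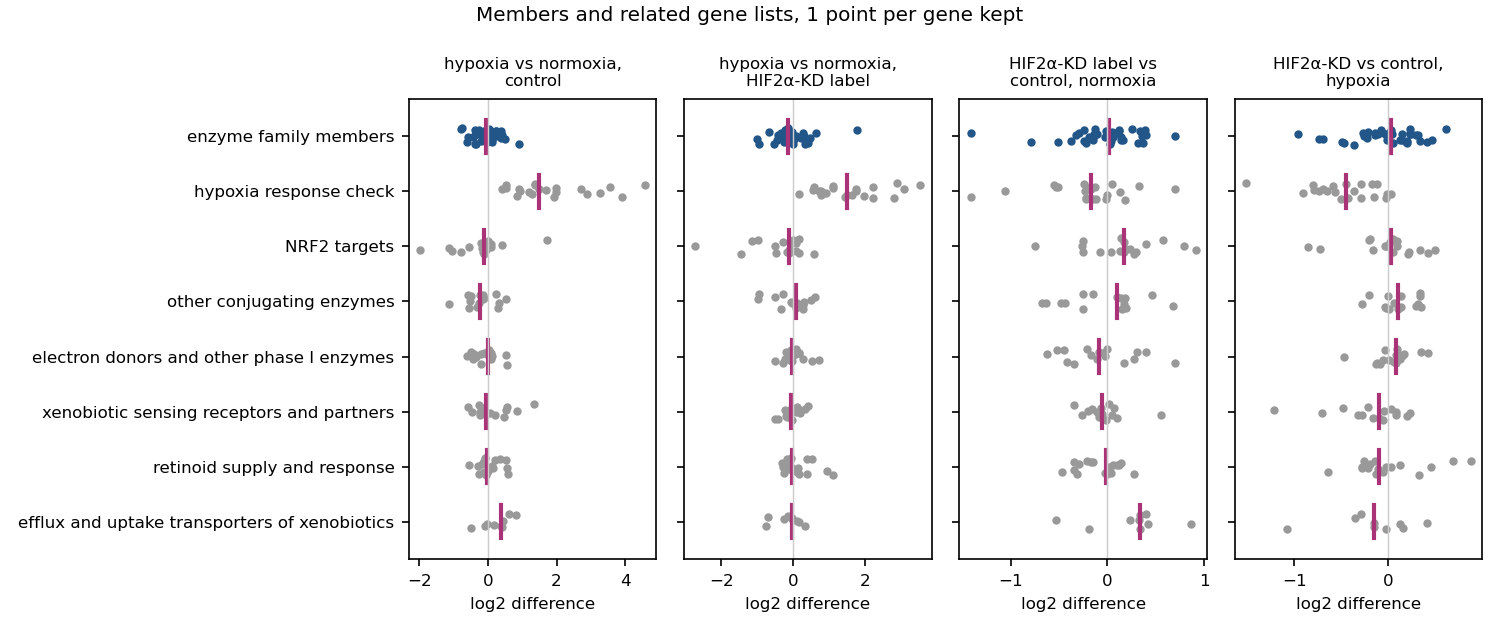
Difference of log2(intensity + 16) in the 4 comparisons for the 36 members (blue) and for the genes kept of 7 related lists (grey), with 1 point per gene and the median in red. The hypoxia response genes are shifted to 1.48 and 1.51 in hypoxia, whereas the member medians are -0.05 and -0.13.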

How the data were processed

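Total RNA of 4 MDCK cultures was measured on Affymetrix canine arrays. The authors deposited 1 linear intensity per probe set and array. How these were summarized, background-corrected and scaled, and with which software, is not stated in the labels or the study's methods. Of 42924 probe sets, 29254 carry 1 symbol, 439 several and 13167 none, and 64 are reporters, of which 1 bright one was left out. Of the 70 members, 69 matched RefSeq by symbol. Differences used log2(intensity + 16) without further scaling, and genes were kept from a highest intensity of 28.64. The fit used limma 3.58.1 in R 4.3.3 with the trend option, tested on simulated data. Alternatives were pseudocounts of 1 and 64, other filters, 3 scalings, averaging over a gene's probe sets, a 1.5-fold threshold, limma with no trend or with robust variances, each other probe set, and the 4 symbols left out.

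Named are members at least 2-fold different or called by limma, per comparison the 4 that differed most in each direction, the 3 brightest of each family, the retinoid, CYP1, CYP24 and CYP27 genes, *EPAS1*, and up to 3 genes per related list. Others were chosen after their values were seen. The members and lists were chosen with earlier results of these data known, and the grouping by role was made after the values were seen. No sequences or coordinates were used, other than the order of genes in RefSeq. The number of arrays limits the precision.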

Additional observations from a re-analysis of the deposited data

Results flagged for a closer look

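Of the 36 members, 13 had opposite signs of the hypoxia difference in the 2 cell lines and 20 of the knockdown difference at the 2 oxygen levels. Differences near 0 change sign easily, and the share over all genes was not taken. These counts therefore do not set the members apart from other genes. The change between the pairs reached 1 on the log2 scale in *CYP1B1* and *CYP4A11*, and none of these changes was tested. For *CYP1B1* the hypoxia difference was 0.39 in control cells and -0.67 between the KD-labelled arrays, a change of -1.05, and the knockdown difference was 0.35 in normoxia and -0.70 in hypoxia, which is the same change of -1.05. The knockdown difference of *CYP4A11* was -1.41 in normoxia and 0.24 in hypoxia, a change of 1.65. Each of these changes, though not every difference behind it, includes the normoxic array with the knockdown label, on which *EPAS1* was not lower.

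Outside the genes named here, 5 of 11 probe sets that carry several symbols, at least 1 of them of these families, lay above the reporters on all 4 arrays. Their mean intensities were 57.2 to 1284 and their largest difference was 0.60 in size. They cannot be given to a single gene.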

How the results depend on the processing

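No paired analysis was possible because each condition has 1 array and no replicate numbers are shared, beyond the additive fit, which compares oxygen levels within cell lines. No replicate could be left out. For the 29 members named, 1042 of 1048 differences under an alternative moved by less than 1.5-fold, and the 6 that moved more came from another probe set. The sign changed in 56, of which 13 had a size over 0.1, 9 of these from another probe set and 4 from the mean of probe sets. The filter settings leave the difference of a kept gene unchanged by construction, as does averaging where a gene has 1 kept probe set. Part of the 1042 could therefore not move, and that part says nothing about stability. The other probe sets and the counts with the 4 symbols left out by the rule were added after the data were seen.

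The members at least 2-fold different changed with the setting. With a pseudocount of 1 they were 1 and 3 for hypoxia in control cells and under the knockdown label, and 2 and 3 for the knockdown in normoxia and hypoxia, while the counts over all genes were 595, 335, 235 and 225 against 349, 176, 113 and 95. For hypoxia under the knockdown label they were 3 with median centring and 1 with a pseudocount of 64, with the filter at the 75th percentile and with the mean of probe sets. At 1.5-fold they were 5, 5, 3 and 4 in the order of the text, and with the 4 symbols 2, 4, 2 and 2. The members limma called for oxygen were 0 without the filter, with the mean of probe sets or without the trend, 1 with the filter at the 75th percentile, cyclic loess or median centring, and 4 with the 4 symbols. Over all genes limma called 280 for oxygen, from 70 without the filter to 484 with quantile normalization, and 0 for the knockdown, 10 and 4 with pseudocounts of 1 and 64, 16 with quantile normalization and 21 with robust moderation. The causes were not tested beyond the number of genes in each fit.

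Of 144 member differences, 12 changed sign under a scaling, all at most 0.0856 in size. The arrays cannot show changes of genes near the reporters.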
